A study of Mus musculus with 84 samples.

Results

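Microglia sorted from the brains of injured mice were compared between day 7 and day 1 after a severe traumatic brain injury. The libraries were chosen by label, as all those of injury alone, without liposomes, at these days and of 1 library year: 5 libraries of day 7 and 5 of day 1, which are 10 of the 84 libraries in the study. The study sequenced RNA of sorted microglia at several times after injury, with and without depletion of peripheral monocytes, and the 10 libraries used here belong to its groups without depletion. Beside them stand 9 libraries of uninjured mice of the same days and year, 5 of day 1 and 4 of day 7. The labels give the treatment of the injured groups as injury only and that of the uninjured groups as none. They call the uninjured mice sham in the titles and naive in the library names, so it is not known whether these mice had surgery or anaesthesia. The sources used here give no strain, genotype, age or sorting gate. The male gene Ddx3y, a Y-linked RNA helicase, was at 51.5 to 83.1 CPM (counts scaled to library size) in the injured libraries, and Xist, the RNA of the inactive X chromosome, had no count in any of the 10.

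Microglia are the resident macrophages of the brain. In the healthy brain they survey the tissue and express a characteristic set of receptors, among them the purinergic receptor P2ry12. After damage they take up debris and can pass through states that differ in their genes, from an early inflammatory one with cytokines and chemokines to a later lipid-handling one, called disease-associated, that is marked by Apoe, Trem2 and Gpnmb.

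Each day was processed as its own set of libraries, so day after injury and batch of processing cannot be told apart. The uninjured libraries of the same 2 days are therefore given beside many of the results. Where they are left out, a difference between the days without injury is not excluded. A further contrast tests whether the difference between the days is itself different in injured and uninjured microglia. Whether each library is from its own mouse is not stated, so p-values reflect the spread among libraries, which may be technical. In bulk RNA, fewer cells of a type and less RNA per cell cannot be told apart. Total gene counts ran from 12945907 to 14716977 in the injured libraries of day 1 and from 8908746 to 13687562 in those of day 7. Of the variance among the 19 libraries, the first principal component held 32.6% and separated the days, and the second held 22.4% and separated injured from uninjured. Injured library 3 of day 7, the shallowest, stood apart on the third, which held 6.8%.

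Of 14041 genes tested in injured microglia, 3184 (22.7%) were higher at day 7 and 3042 (21.7%) were lower, together 44.3% of all genes, at an adjusted p under 0.05. The 5 libraries of one day all lay above the 5 of the other for 29.2% of genes, with day 7 higher in 14.1% and lower in 15.2%. In uninjured microglia of the same days 198 genes (1.41%) were higher at day 7 and 285 (2.03%) lower. The split of the uninjured calls depends on scaling: with library totals and no further scaling 396 were higher and 151 lower, and the median of all genes moved from 0.00 to 0.14 on the log2 scale. Of the 198 genes higher in uninjured microglia at day 7, 163 (82.3%) were also higher in injured microglia, which is 5.12% of the injured list. Of the 285 lower ones, 216 (75.8%) were also lower, which is 7.1% of the injured list. The difference between the days differed between injured and uninjured microglia for 2736 genes (19.5%), with 1271 (9.05%) more positive and 1465 (10.4%) more negative after injury. All differences below are day 7 relative to day 1, as log2 fold changes with their standard error (SE), and "rose" and "fell" refer to day 7 against day 1. A difference that is larger or smaller after injury by this further contrast is called a difference of differences. Counts of list members called in injured microglia stand against 22.7% higher and 21.7% lower among all genes tested. In uninjured microglia these shares were 1.41% and 2.03%, and for the difference of differences 9.05% and 10.4%.

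**Figure D1:**
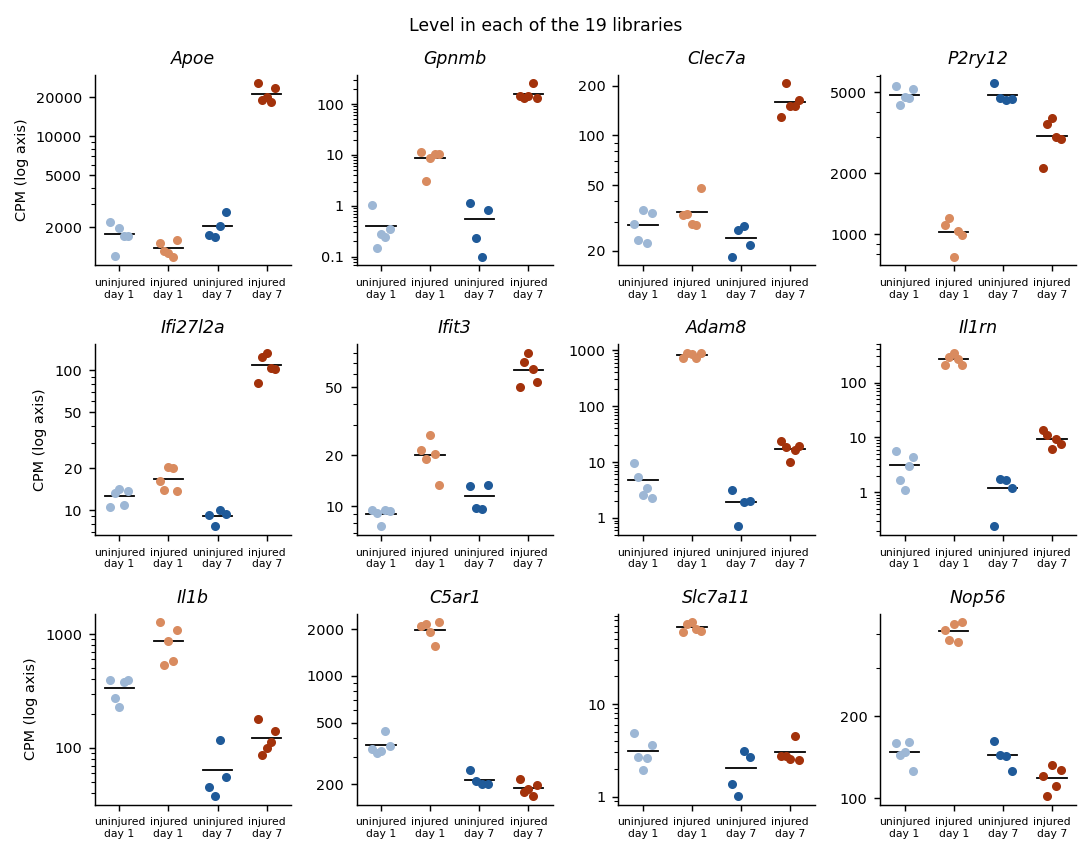
CPM of 12 genes in each of the 19 libraries, on log axes that differ between panels, with uninjured libraries in blue and injured ones in orange and red; the line is the mean of a group, and a library with no count is drawn at 0.1. Apoe, Gpnmb, Clec7a, P2ry12, Ifi27l2a and Ifit3 were higher in all 5 injured libraries of day 7 than in any of day 1, and Adam8, Il1rn, Il1b, C5ar1, Slc7a11 and Nop56 were lower in all 5.

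Secreted and surface proteases, scavenger receptors and cytokine genes held many of the largest falls between day 1 and day 7. Of the extracellular protease and matrix genes, 9 of 14 fell and 1 rose (2 without day 1 library 1 or day 1 library 4). Their median was −2.09, against a median of 0.04 over all genes tested. In uninjured microglia 1 of the 14 fell and none rose (median −0.19). The 9 that fell include Arg1, which was listed with them but is neither a protease nor a matrix gene. Adam8 (chromosome 7, 139978932 to 139992562 on GRCm38, as for all gene positions), a membrane metalloprotease that sheds surface proteins, had CPM of 732, 899, 863, 714 and 886 at day 1 and 23.5, 18.4, 10.1, 16.1 and 19.1 at day 7. The groups lay far apart, with the lowest day 1 library over any of day 7, and the difference was −5.55 (SE 0.32, adjusted p = 3.4e-10). In uninjured microglia Adam8 was at 4.68 ± 3.09 CPM (SD, n = 5) on day 1 and 1.95 ± 0.984 (SD, n = 4) on day 7, so day 7 levels after injury were nearer to the uninjured than to the day 1 level. Plaur, the receptor of urokinase, fell from 305 ± 59.4 to 65.8 ± 16.1 CPM (−2.21, SE 0.18). Mmp12, a macrophage elastase, fell from 43.2 ± 22.3 to 4.54 ± 1.25 CPM (n = 5 and 5 here and in all injured means). Library 5 of day 1 was the highest for Mmp12, at 81.4 CPM.

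Some of these genes were uneven among the injured libraries of day 1. Arg1, an enzyme that breaks down arginine, was at 23.3, 10.4, 13.1, 134 and 132 CPM on day 1 and at 4.37, 0.54, 1.11, 1.68 and 1.24 on day 7. Thbs1, a matrix glycoprotein, was at 213, 146, 331, 625 and 496 CPM on day 1 and at 34.8, 32.6, 16.2, 60.2 and 52.9 on day 7. In both cases libraries 4 and 5 of day 1 were the highest, yet every day 1 library lay above every day 7 library. The same libraries 4 and 5 had the highest summed level of the 15 monocyte and macrophage markers, with the range of that sum at 43.5 to 149 CPM on day 1 and 30.9 to 46.5 CPM on day 7. The part of these markers in the result was not tested. Arg1 fell by 5.09 (SE 0.94), or by 5.76 without day 7 library 1.

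Receptors that bind debris, bacterial products and opsonised particles fell in most cases. Of 15 scavenger, lectin, Fc and efferocytosis receptor genes, 10 fell and 2 rose, with a median of −0.90 that was −0.55 without day 1 library 5. The number that fell was 8 with library totals alone and 8 to 11 on leaving out 1 library. The difference of differences was called for 4 of the 15, each more negative after injury (median −0.28). Msr1 (chromosome 8, 39581685 to 39642673), the class A scavenger receptor, was at 753, 772, 922, 752 and 1180 CPM on day 1 and 76.4, 35.3, 19.7, 19.4 and 24.4 on day 7. Its fall of 4.64 (SE 0.36) was as large in the difference of differences (−4.67, SE 0.51, adjusted p = 5.5e-06), since uninjured microglia held 10.8 ± 2.92 and 11.1 ± 3.28 CPM on the 2 days. Cd14, the co-receptor for lipopolysaccharide, fell from 7220 ± 1270 to 1260 ± 229 CPM (−2.52, SE 0.14). Fcgr3, a low-affinity Fc receptor, fell from 2910 ± 461 to 1560 ± 187 CPM, a smaller change of −0.90. Scarb1, a lipoprotein receptor, went the other way, from 58.2 ± 12.4 to 98.6 ± 7.33 CPM, and it rose in uninjured microglia as well (0.47, SE 0.12, adjusted p = 0.033).

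Marco, a scavenger receptor of macrophages, was uneven among the day 7 libraries. It was at 113, 202, 372, 119 and 37.1 CPM on day 1 and at 37.1, 0, 0.334, 0.491 and 0 on day 7. Library 1 of day 7 reached the lowest day 1 library, and the other 4 held almost no Marco. The fall was 4.44 (SE 1.22, adjusted p = 0.01) with all libraries and 9.56 without that library. Dab2, an endocytic adaptor, fell from 708 ± 100 to 85.3 ± 22.7 CPM (−3.05, SE 0.20), while uninjured microglia held 61.9 ± 17.1 and 86.3 ± 17.5 CPM. Ms4a6d, a membrane protein of the myeloid Ms4a family, fell from 631 ± 94.6 to 123 ± 23.4 CPM, against 134 ± 18.5 and 116 ± 13.7 CPM without injury.

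Among complement genes 2 receptors fell and several components rose. Complement tags debris for uptake, and its cleavage products act on the receptors C5ar1 and C3ar1. Of the 14 complement genes 6 rose, 2 fell and 6 were not called, where 22.7% of all genes rose and 21.7% fell. The 2 that fell were C5ar1 and C3ar1. The genes not called included the C1q chains C1qa (−0.12), C1qb (−0.14) and C1qc (0.16), and Itgam (0.01) and Itgb2 (−0.11), the subunits of complement receptor 3. C5ar1 (chromosome 7, 16246743 to 16259540) was at 2110, 2160, 1910, 1560 and 2220 CPM on day 1 and at 217, 179, 185, 168 and 198 on day 7. The 2 groups lay far apart (−3.39, SE 0.12, adjusted p = 1.4e-15). C5ar1 also fell without injury, from 355 ± 48.7 to 214 ± 21.6 CPM, by 0.74 (SE 0.11), and the difference of differences was −2.66 (SE 0.16, adjusted p = 1.9e-10). C3ar1 fell from 1260 ± 182 to 519 ± 102 CPM, and without injury from 565 to 393 CPM (−0.52, adjusted p = 0.025). Its difference of differences was −0.75 (adjusted p = 0.0036). C3, the central component, was at 3.34, 1.26, 5.68, 4.8 and 4.98 CPM on day 1 and at 39.8, 21.5, 19.5, 24.3 and 21.4 on day 7 (2.65, SE 0.37), and stayed at 1.38 ± 0.955 and 1.3 ± 0.409 CPM without injury.

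Cytokine and NF-κB genes fell from day 1 to day 7, and here uninjured microglia showed part of the same difference. In injured microglia 18 of 25 genes fell and 2 rose (median −1.47). In uninjured microglia 14 of the 25 fell and none rose (median −0.66). The difference of differences was called for 13 of them, 10 more negative and 3 more positive after injury. Il1b (chromosome 2, 129364570 to 129371139), which encodes interleukin-1β, was at 1270, 530, 870, 584 and 1090 CPM in injured libraries of day 1 and at 178, 86, 99.5, 112 and 140 on day 7. It fell by 2.82 (SE 0.33) after injury and by 2.38 (SE 0.35, adjusted p = 0.00085) without injury, from 335 ± 76.9 to 64.2 ± 36.5 CPM. The difference between the 2 falls was not called (−0.44, SE 0.45, adjusted p = 0.56).

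The interleukin-1 receptor antagonist behaved differently from Il1b. Il1rn (chromosome 2, 24336853 to 24351494), which blocks the receptor that interleukin-1 acts on, was at 205, 293, 349, 270 and 205 CPM on day 1 and at 13.5, 11, 6.02, 9.47 and 7.65 on day 7 (−4.78, SE 0.33). Uninjured microglia held only 3.16 ± 1.87 and 1.22 ± 0.692 CPM, and the difference of differences was −3.42 (SE 0.62, adjusted p = 0.00071). Tnfsf9, the ligand 4-1BBL, fell from 275 ± 85 to 11 ± 3.9 CPM (−4.65, SE 0.28), and Il12b, a subunit of interleukin-12 and interleukin-23, from 44.3 ± 13.2 to 2.76 ± 1.47 CPM (−4.03, SE 0.31). Without injury Il12b was not called (−1.8, adjusted p = 0.052), and its difference of differences was −2.23 (adjusted p = 0.022). Ptgs2, or cyclooxygenase 2, makes prostaglandin precursors and fell from 244 ± 53.8 to 24.5 ± 8.59 CPM. Ptgs2 also fell in uninjured microglia, from 39.0 to 12.9 CPM (−1.6, adjusted p = 0.0025). Its fall was larger after injury (difference of differences −1.72, adjusted p = 0.0022). Il6, at 34.1, 9.31, 31.7, 7.55 and 30.4 CPM on day 1, split the day 1 libraries into 3 high and 2 low ones, and all 5 lay above the day 7 libraries, which held 1.01 to 4.23 CPM.

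Chemokines, the secreted attractants of other leukocytes, fell in 13 of 16 cases and rose in 2 (median −1.19). In uninjured microglia 2 of the 16 fell. Ccl12 fell from 1180 ± 50.6 to 519 ± 72.8 CPM after injury (−1.19, SE 0.10), while uninjured microglia held 199 ± 27.7 and 251 ± 10.3 CPM. Cxcl2, an attractant of neutrophils, was at 233, 239, 382, 200 and 322 CPM on day 1 and at 15.5, 34.8, 34.9, 31.4 and 32 on day 7 (−3.21, SE 0.26). Ccl4, an attractant of monocytes and T cells, fell from 4450 ± 1250 to 1580 ± 182 CPM. Its fall without injury was also called (−0.94, SE 0.17), and the difference of differences was not (−0.56, SE 0.23, adjusted p = 0.09). Ccl8, an attractant of monocytes, was the largest exception, with 0.0796 to 1.48 CPM on day 1 and 6.47 to 15.7 CPM on day 7 (3.36, SE 0.54).

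Most disease-associated microglia genes rose. Of the 26 genes tested, 16 rose and 5 fell (median 1.07), against 0 and 4 in uninjured microglia (median −0.21). The difference of differences was called for 17, of which 15 were more positive after injury. Apoe (chromosome 7, 19696109 to 19699188), an apolipoprotein that moves lipids between brain cells, was at 1520, 1310, 1270, 1180 and 1600 CPM on day 1 and at 25600, 19000, 20000, 18300 and 23600 on day 7. Day 1 levels overlapped those of the uninjured libraries (1750 ± 370 and 2030 ± 433 CPM on the 2 days), and the rise was 15.5-fold (3.95, SE 0.16, adjusted p = 5.6e-14). The difference of differences for Apoe was 3.74 (SE 0.22, adjusted p = 1.9e-10).

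Gpnmb (chromosome 6, 49036546 to 49070929), a glycoprotein found on phagocytes, was at 11.6, 3.01, 8.52, 10.6 and 10.3 CPM on day 1 and at 145, 129, 141, 256 and 132 on day 7 (4.19, SE 0.36). Uninjured microglia held under 1 CPM on average on both days (0.41 ± 0.354 and 0.547 ± 0.518). Igf1, insulin-like growth factor 1, rose from 2.12 ± 0.866 to 30 ± 4.27 CPM (3.82, SE 0.35). Clec7a, the β-glucan receptor dectin-1, was at 32.8, 33.2, 29.1, 28.7 and 47.7 CPM on day 1, close to its uninjured mean of 28.8 ± 5.96, and at 129, 207, 150, 150 and 163 on day 7. Cst7, a cysteine protease inhibitor, rose from 21.3 ± 3.4 to 117 ± 15.9 CPM (2.46, SE 0.18). Trem2, the lipid-sensing receptor on which the later disease-associated genes depend in mice, was at 808, 769, 650, 599 and 675 CPM on day 1 and at 1230, 1420, 2110, 1520 and 1600 on day 7. The day 7 level of Trem2 was close to that of uninjured microglia (1660 ± 287 and 1590 ± 210 CPM), whereas Apoe, Gpnmb and Clec7a passed it.

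Some disease-associated genes rose less evenly, and 5 fell. Spp1, or osteopontin, was at 167, 176, 192, 245 and 999 CPM on day 1 and at 756, 1160, 819, 892 and 1180 on day 7. Day 1 library 5 lay within the day 7 range, and the rise was 1.43 (SE 0.42, adjusted p = 0.011) with it and 2.29 without it. The difference of differences for Spp1 was not called (1.61, SE 0.67, adjusted p = 0.11). Lgals3, or galectin-3, a lectin of damaged membranes, ran against the list: 250, 301, 343, 281 and 368 CPM on day 1 and 73.9, 60.2, 78.7, 57.3 and 62.8 on day 7 (−2.22, SE 0.16). It remained above the uninjured libraries, which held 10.5 ± 3.51 and 8.67 ± 1.02 CPM.

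**Figure D2:**
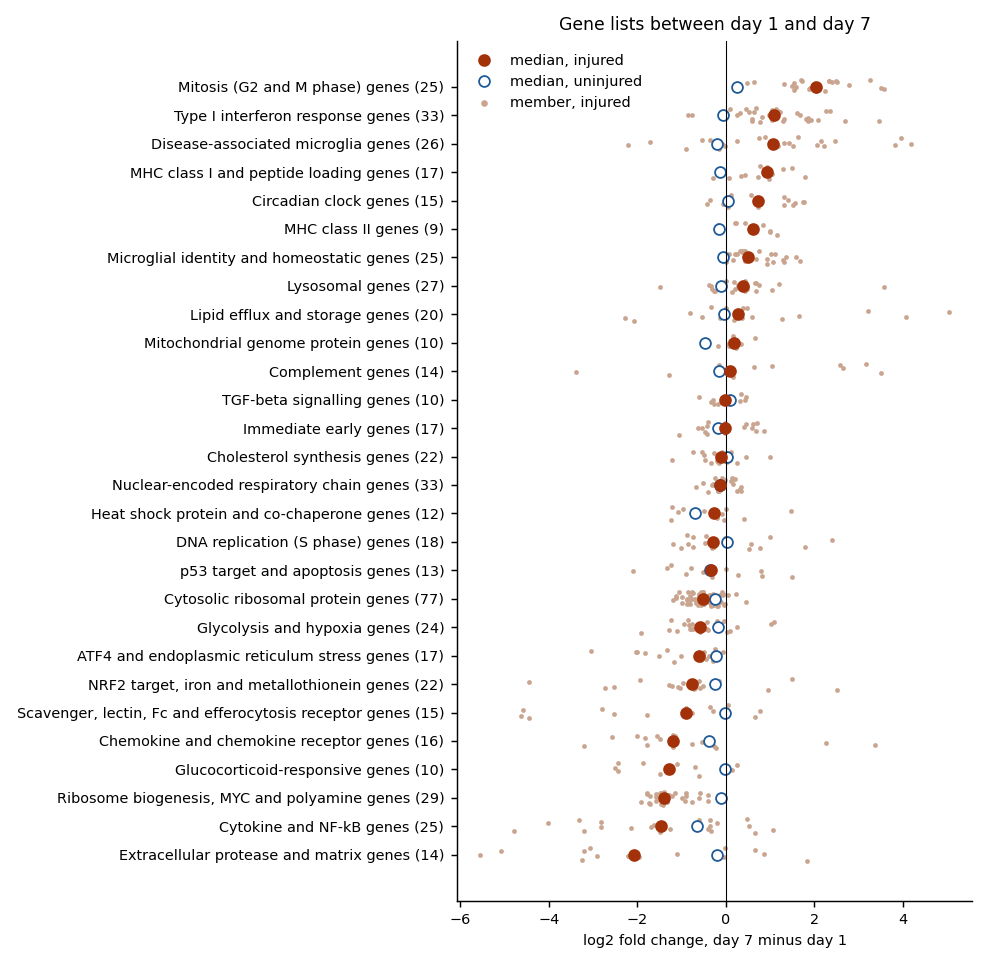
Log2 fold change of day 7 against day 1 for each tested member of the gene lists in injured microglia (points) with the list medians of injured and uninjured microglia (marks), on 1 axis. Ribosome biogenesis genes lie below 0 throughout, the medians of interferon, mitosis and disease-associated genes lie above 1 in injured microglia, and the uninjured medians of the same lists lie between −0.21 and 0.26.

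Genes of lipid efflux and storage moved in both directions. Of 20 such genes, 8 rose, 5 fell and 7 were not called (median 0.28), Abca1, a cholesterol exporter, among the last (0.01). Among all genes tested 22.7% rose and 21.7% fell. Apoc1, an apolipoprotein next to Apoe on chromosome 7 (19689481 to 19692660), had CPM of 0.796, 0.7, 0.338, 0.776 and 0.562 on day 1 and 17.6, 29, 15.6, 23.6 and 19.3 on day 7 (5.04, SE 0.38). Pltp, the phospholipid transfer protein, rose from 17.2 ± 6.24 to 159 ± 44 CPM (3.21, SE 0.29). Plin2, the coat protein of lipid droplets, was at 558, 655, 686, 524 and 797 CPM on day 1 and at 160, 148, 143, 149 and 166 on day 7 (−2.07, SE 0.10). Uninjured microglia held 85.2 ± 5.48 and 60.6 ± 5.08 CPM of Plin2, a smaller fall that was also called (−0.49, SE 0.11, adjusted p = 0.0093). Hilpda, an inhibitor of lipolysis on droplets, fell from 46.9 ± 8.3 to 9.68 ± 1.18 CPM. Lysosomal genes rose in 16 of 27 cases and fell in 6 (median 0.40): Hexa, a subunit of hexosaminidase, rose from 659 ± 50.8 to 1520 ± 98.8 CPM, and Ctsc, the cathepsin that activates granule proteases, fell from 2810 ± 338 to 1000 ± 144 CPM.

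Type I interferon response genes rose together between day 1 and day 7. Interferon acts through transcription factors that bind the interferon-stimulated response element in the promoters of their targets. Of the 33 genes 29 rose and 2 fell (median 1.09), whereas in uninjured microglia none rose and 3 fell (median −0.06). The difference of differences was called for 29, with 28 more positive after injury and 1 more negative. The promoters of 4 of these genes are shown because all carry the element GAAANNGAAA, in capitals on either strand, while their transcripts did not all move the same way. The sequences are from RefSeq on GRCm38.p6 and run 5′ to 3′ on the gene's strand, from 250 bases before to 50 bases after the start of the gene. Ifit3 is shown from chr19:34583279-34583578 (plus strand), Slfn5 from chr11:82951852-82952151 (plus strand), Oas1a from chr5:120907476-120907775 (minus strand) and Cxcl10 from chr5:92348840-92349139 (minus strand).
Ifit3: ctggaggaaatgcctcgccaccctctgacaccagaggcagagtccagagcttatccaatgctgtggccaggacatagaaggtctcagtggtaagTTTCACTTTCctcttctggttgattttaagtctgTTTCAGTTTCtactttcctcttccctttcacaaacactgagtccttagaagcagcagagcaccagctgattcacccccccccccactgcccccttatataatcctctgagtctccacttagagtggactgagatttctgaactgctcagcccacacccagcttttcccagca
Slfn5: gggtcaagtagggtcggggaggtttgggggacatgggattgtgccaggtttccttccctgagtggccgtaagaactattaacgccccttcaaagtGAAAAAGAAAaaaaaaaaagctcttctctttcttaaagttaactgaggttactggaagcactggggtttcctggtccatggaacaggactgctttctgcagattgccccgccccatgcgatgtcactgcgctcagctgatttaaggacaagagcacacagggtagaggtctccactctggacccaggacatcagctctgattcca
Oas1a: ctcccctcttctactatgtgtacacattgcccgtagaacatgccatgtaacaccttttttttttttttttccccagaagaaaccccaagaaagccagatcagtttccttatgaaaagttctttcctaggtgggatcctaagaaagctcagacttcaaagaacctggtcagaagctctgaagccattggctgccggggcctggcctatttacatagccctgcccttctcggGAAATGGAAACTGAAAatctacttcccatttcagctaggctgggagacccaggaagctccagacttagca
Cxcl10: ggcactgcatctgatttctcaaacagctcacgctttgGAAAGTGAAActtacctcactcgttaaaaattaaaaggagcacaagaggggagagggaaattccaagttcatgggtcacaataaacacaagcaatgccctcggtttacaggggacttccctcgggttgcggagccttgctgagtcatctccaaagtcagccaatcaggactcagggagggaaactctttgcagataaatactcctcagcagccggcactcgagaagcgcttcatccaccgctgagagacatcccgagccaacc
In Ifit3 the 2 matches start 156 and 122 bases before the start site and lie on the opposite strand. In Oas1a the 2 matches overlap, and start 20 and 14 bases before it. Slfn5, Oas1a and Cxcl10 fell outside the rule for named genes and were chosen after their values were seen.

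Ifit3 (chromosome 19, 34583531 to 34588731), an antiviral protein of the IFIT family, was at 21.4, 19, 26.1, 20.2 and 13.3 CPM on day 1 and at 50.2, 70.1, 79.9, 64.2 and 54 on day 7 (1.67, SE 0.16). Slfn5, of the schlafen family, was at 10.5, 6.65, 11.6, 9.25 and 7.72 CPM on day 1 and at 29.5, 45.1, 24.4, 38.9 and 34.6 on day 7 (1.92, SE 0.18). Oas1a, which makes the second messenger of RNase L, was at 20.2, 12.7, 17.7, 18.1 and 9.41 CPM on day 1 and at 35.6, 36.8, 37.5, 38.5 and 33.6 on day 7 (1.22, SE 0.16). None of these 3 genes overlapped between the days. Cxcl10, a chemokine that interferon and NF-κB both induce, was at 119, 74.8, 81.8, 56.5 and 98.3 CPM on day 1 and at 33.5, 52.2, 60.3, 55.9 and 50.2 on day 7. It fell (−0.77, SE 0.17, adjusted p = 0.00066) although its window holds the element, and it fell in uninjured microglia too (−0.98, SE 0.19).

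A match of the element is a description of these windows and not of binding. Both strands were searched, and overlapping matches in a promoter counted once per gene. Of 33 interferon genes 24 had an entry, and 16 of these (66.7%) held GAAANNGAAA, against 1079 of 27025 genes in the table (3.99%). Of the class I antigen presentation genes with an entry, 4 of 15 (26.7%) held it. The kappa B letters GGGANNTTCC stood in 3 of 19 cytokine and NF-κB promoters (15.8%), in 4 of 24 interferon promoters (16.7%) and in 1.63% of all, and the heat shock element GAANNTTCNNGAA in 3 of 9 heat shock promoters (33.3%) and in 0.662% of all. Ifit3 and its neighbour copy Ifit3b, the Oas1 family and the class I H2 genes resemble each other in sequence, and reads may be split among such copies, so the values of single members are uncertain.

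Effectors of the interferon response rose to different extents. Ifi27l2a, a small interferon-induced protein of mitochondria and nuclear membrane, rose from 16.8 ± 3.23 to 109 ± 20.8 CPM (2.70, SE 0.15). Ifit2 rose from 11.3 ± 0.966 to 57.5 ± 17.3 CPM and Oasl2 from 15.5 ± 4.27 to 74.3 ± 16.2 CPM, both encoding antiviral proteins. Slfn2, a schlafen that keeps mouse T cells quiescent, ran against the list with 275 ± 51.9 and 153 ± 19 CPM (−0.85, SE 0.11).

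**Figure D3:**
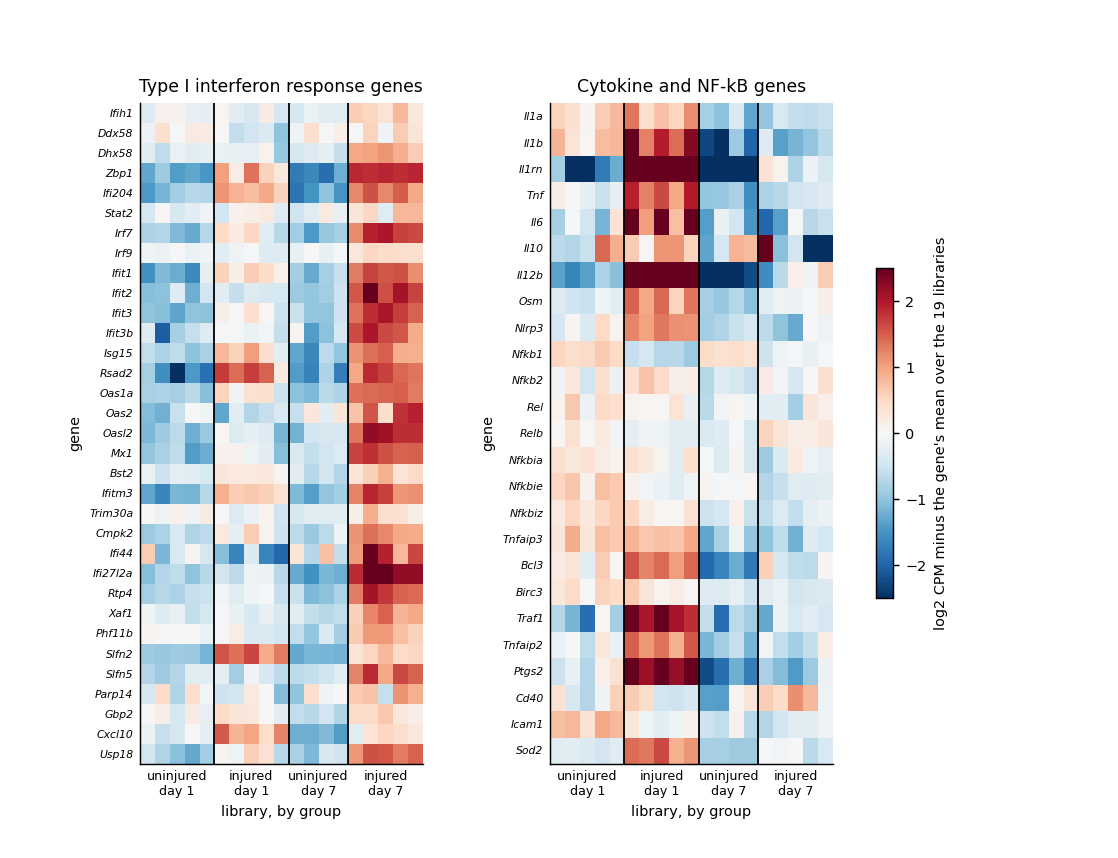
Log2 CPM (prior count 2) of interferon response and cytokine genes in each of the 19 libraries, shown as colour relative to the mean of each gene over the libraries. In the injured libraries the interferon block is high at day 7 and the cytokine block at day 1; in uninjured libraries the cytokine block is also higher at day 1.

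Class I antigen presentation, which interferons also induce, rose with these genes. Of 17 class I and peptide loading genes, 13 rose and none fell (1 without day 7 library 4), with a median of 0.92, while in uninjured microglia none rose and 4 fell. H2-K1 rose from 675 ± 65.7 to 1290 ± 165 CPM (0.94, SE 0.09), and Psmb9, an immunoproteasome subunit that makes peptides for class I, from 29.1 ± 3.6 to 70.8 ± 13.9 CPM. H2-Q6 and H2-Q7, near-identical class I genes whose reads cannot be assigned with certainty, rose by 1.78 and 1.5 after injury and fell by 0.93 and 1.12 without it. For class II genes 5 of 9 rose and none fell (median 0.62), but 3 rose without day 1 library 3, without day 1 library 4 or without day 7 library 3, and the median was 0.29 without the last. H2-Ab1 was at 116, 109, 57, 84.4 and 99.6 CPM on day 1 and 134, 177, 244, 186 and 181 on day 7 (0.99, SE 0.23), below the 345 ± 64 and 353 ± 132 CPM of uninjured microglia. Cd74, the class II invariant chain, had 487 ± 46 and 426 ± 75.9 CPM and was not called (−0.19, SE 0.17, adjusted p = 0.39).

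Most genes of resting microglia rose from day 1 to day 7. Of 25 identity and homeostatic genes 19 rose and none fell (median 0.49), and none was called in uninjured microglia (median −0.06). For 15 of them the difference of differences was called, each time more positive after injury. P2ry12 (chromosome 3, 59216272 to 59262871), the purinergic receptor that guides microglial processes, was at 1110, 1210, 776, 1040 and 991 CPM on day 1 and 2110, 3490, 3730, 3020 and 2930 on day 7 (1.58, SE 0.13). Uninjured microglia held 4860 ± 410 and 4860 ± 452 CPM on the 2 days, a mean above every injured library of either day. Gpr34, a lysophosphatidylserine receptor, rose from 383 ± 50.9 to 1220 ± 406 CPM, Siglech, a sialic acid-binding lectin, from 472 ± 55.6 to 1170 ± 201 CPM and Slc2a5, a fructose transporter, from 214 ± 53.3 to 545 ± 79.6 CPM. Sparc, a matrix-associated protein, rose from 2260 ± 156 to 4590 ± 734 CPM, which is the level of uninjured microglia of day 7 (4620 ± 442 CPM). Across the 5 day 7 libraries of P2ry12, Gpr34, Siglech, Slc2a5 and Sparc, library 1 was the lowest in all 5 genes.

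Tmem119, a surface protein of microglia, did not follow the others. It was at 2990, 3400, 3080, 3610 and 3200 CPM on day 1 and at 2670, 2990, 4040, 3370 and 3330 on day 7, and the groups overlapped (0.01, SE 0.11, adjusted p = 0.95). Uninjured microglia held 5680 ± 664 and 5340 ± 491 CPM. Sall1, a transcription factor of microglial identity, was at 74.1, 75.8, 131, 151 and 105 CPM on day 1 and at 160, 145, 113, 247 and 232 on day 7; it rose by 0.74 (SE 0.23, adjusted p = 0.012) with overlapping libraries, and the difference of differences was not called (0.29, SE 0.33, adjusted p = 0.61). Among genes outside the lists, the largest gains included Ramp1, a partner of the calcitonin gene-related peptide receptor, at 4.11 ± 1.95 and 56.6 ± 16.4 CPM after injury and 37 ± 5.45 and 37.8 ± 3.48 CPM without. The smallest p-values of the difference of differences included Selenop and Itm2b. Selenop, the selenium carrier, rose from 1160 ± 154 to 3170 ± 444 CPM and Itm2b, a membrane protein of the BRICHOS family, from 2430 ± 166 to 6740 ± 536 CPM.

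**Figure D4:**
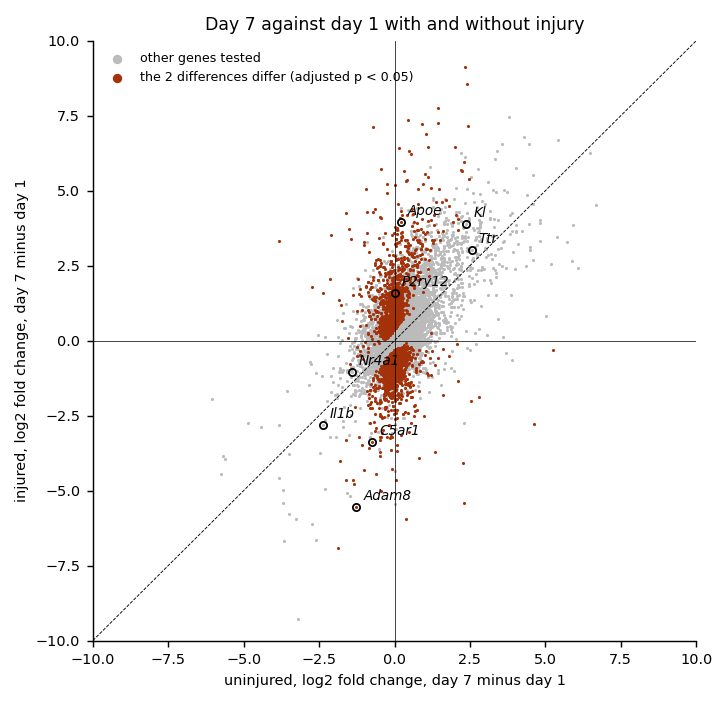
Log2 fold change of day 7 against day 1 for each of the 14041 genes tested, with uninjured microglia on the horizontal and injured microglia on the vertical axis; coloured points were called in the difference of differences (adjusted p under 0.05). Apoe, Adam8, C5ar1 and P2ry12 lie far from the diagonal, while Il1b, Ttr and Nr4a1 lie near it.

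Most mitosis genes rose, while DNA replication genes moved in both directions. Of 25 mitosis genes 22 rose and none fell (median 2.03), and none was called in uninjured microglia. The difference of differences was called for 12 of the 25, each more positive after injury. Levels were low, with a sum over the 25 of 26.7 to 34.9 CPM on day 1 and 80.8 to 174 on day 7. Cdk1, the kinase that drives entry into mitosis, was at 1.67, 2.38, 2.44, 2.33 and 2.39 CPM on day 1 and at 13.1, 10.3, 8.58, 8.91 and 11.9 on day 7 (2.23, SE 0.22). Birc5, or survivin, rose from 0.444 ± 0.212 to 5.37 ± 2.04 CPM (3.57, SE 0.42). Mki67, the proliferation marker Ki-67, was at 0.557, 0.42, 1.29, 1.06 and 1.4 CPM on day 1 and at 5.15, 3.24, 0.78, 4.35 and 4.02 on day 7 (1.89, SE 0.44). Day 7 library 3 lay within the day 1 range for Mki67, and uninjured microglia had 1.42 ± 0.288 and 1.66 ± 1.02 CPM. Of the 18 replication genes 9 fell and 2 rose (median −0.30). Mcm2, a subunit of the replicative helicase, was at 28.6, 21.9, 40.5, 87.9 and 75.6 CPM on day 1 and at 31.9, 21.5, 14.4, 22 and 20.8 on day 7 (−1.20, SE 0.30), the groups overlapping and day 1 libraries 4 and 5 again the highest. Rrm2, a subunit of ribonucleotide reductase, rose from 1.27 ± 0.638 to 6.74 ± 4.38 CPM (2.39, SE 0.43).

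Genes that build ribosomes fell as a group. All 29 genes tested for ribosome assembly, MYC and polyamine synthesis fell (median −1.40), against 1 in uninjured microglia (median −0.12). Of the 29, 24 were more negative in the difference of differences. The number that fell was 28 with DESeq2 size factors, 27 with library totals alone and 27 to 29 on leaving out 1 library. Nop56 (chromosome 2, 130274430 to 130279313), a core protein of the complexes that methylate ribosomal RNA, was at 412, 380, 436, 374 and 441 CPM on day 1 and at 121, 102, 132, 111 and 127 on day 7 (−1.79, SE 0.09, adjusted p = 2.5e-12). Uninjured microglia held 148 ± 14.2 and 144 ± 14.4 CPM, above the day 7 libraries of injured mice in the mean. Ncl, or nucleolin, fell from 619 ± 38.2 to 208 ± 11.8 CPM and Srm, spermidine synthase, from 190 ± 19 to 55.1 ± 7.79 CPM. Of 77 cytosolic ribosomal protein genes 57 fell and 1 rose (median −0.51), and 4 fell in uninjured microglia (median −0.24). Rplp0, of the ribosomal stalk, fell from 695 ± 72 to 318 ± 52.5 CPM (−1.13, SE 0.11), and Rps27 was the exception (79.7 ± 15.8 to 109 ± 10.9 CPM, 0.45, SE 0.12). Ribosomal protein genes have many pseudogene copies, so reads may be shared.

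Many redox, amino acid and glycolytic genes also fell. Of 22 NRF2 target, iron and metallothionein genes 17 fell and 3 rose (median −0.76), and 3 fell and 2 rose without injury. Slc7a11 (chromosome 3, 49892526 to 50443614), the cystine importer that feeds glutathione synthesis, was at 59.4, 72.8, 76.2, 64.7 and 62 CPM on day 1 and at 2.73, 2.78, 2.56, 4.49 and 2.49 on day 7 (−4.46, SE 0.25). The day 7 level was close to the uninjured ones (3.13 ± 1.11 and 2.04 ± 1.01 CPM). Txnrd1, thioredoxin reductase 1, fell from 234 ± 42.3 to 61.1 ± 10.1 CPM, while Nqo1, a quinone reductase, rose from 1.23 ± 0.602 to 7.1 ± 2.73 CPM and rose without injury as well (2.03, SE 0.47). Of 17 ATF4 and endoplasmic reticulum stress genes 14 fell and none rose (median −0.62), among them Shmt2 (156 ± 14.5 to 44.2 ± 5.53 CPM) and Psat1 (146 ± 19.4 to 57.4 ± 2.55 CPM), enzymes of serine and one-carbon metabolism. Without injury 3 of the 17 ATF4 and endoplasmic reticulum stress genes fell and none rose. Of 24 glycolysis and hypoxia genes 16 fell and 2 rose (median −0.58), and 2 fell and 1 rose without injury. Pfkfb3, an activator of glycolysis, fell from 736 ± 49.8 to 194 ± 44.2 CPM after injury and from 262 ± 36.4 to 147 ± 15.5 CPM without. Pkm, the pyruvate kinase, fell from 1610 ± 292 to 684 ± 105 CPM. Of 33 nuclear respiratory chain genes 2 rose and 4 fell (median −0.13); without day 7 library 3 none rose and 9 fell, and leaving out another single library gave 0 to 2 that rose.

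Most glucocorticoid-responsive genes fell, and some clock genes rose. Of 10 glucocorticoid-responsive genes 8 fell and none rose (1 without day 7 library 3), with a median of −1.29, and 2 fell without injury. Fkbp5, a chaperone that restrains the glucocorticoid receptor, was at 142, 218, 116, 140 and 151 CPM on day 1 and at 28, 26.9, 16.3, 41.9 and 27.4 on day 7 (−2.44, SE 0.25), against 36.4 ± 11.9 and 26.1 ± 6.28 CPM in uninjured microglia. Per1, which is both a glucocorticoid target and a clock gene, fell in injured (−1.10, SE 0.19) and in uninjured microglia (−0.89, SE 0.20, adjusted p = 0.013). Of 15 clock genes 8 rose and 1 fell (0 to 2 on leaving out single libraries of either day), with a median of 0.72, and none was called in uninjured microglia. Nr1d2, a repressor of the clock, was at 27.1, 15.5, 19.5, 20.3 and 14.6 CPM on day 1 and at 40.7, 83.8, 45.9, 53.7 and 53.9 on day 7. Tef and Dbp, clock output factors, rose from 32 ± 9.41 to 84.3 ± 17 and from 4.18 ± 2.27 to 12.4 ± 2.33 CPM. The day 7 levels of all 3 were near the uninjured ones, such as 60.3 ± 13.8 and 46.5 ± 12.6 CPM for Nr1d2. The labels state no hour of tissue collection, and its part in the result was not tested.

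Immediate early and heat shock genes respond within minutes to stimuli and to tissue handling. Of 17 immediate early genes 7 rose and 7 fell, and 4 fell without injury. The number that fell was 4 without day 1 library 2, and the sign of the list median (−0.03) depended on scaling. Jun rose from 3730 ± 371 to 5720 ± 953 CPM (0.62, SE 0.11). Fos, at 8030 ± 1260 and 10600 ± 2260 CPM, overlapped between the days (0.40, SE 0.13, adjusted p = 0.018) and was no longer called without day 1 library 3 (0.36), day 1 library 4 (0.31) or day 7 library 3 (0.28). Nr4a1, an orphan nuclear receptor, fell after injury (−1.05, SE 0.29) and without (−1.42, SE 0.31, adjusted p = 0.017). The injured value was −0.86 and no longer called without libraries 1 and 3 of day 7. Of 12 heat shock genes 5 fell and 1 rose after injury, and 8 fell without injury. Hsp90ab1, a cytosolic chaperone, fell from 1850 ± 272 to 778 ± 99.4 CPM after injury and from 2400 ± 181 to 1460 ± 212 CPM without. Dnajb1, a co-chaperone of HSP70, rose from 303 ± 95.1 to 834 ± 215 CPM, far below the uninjured 3000 ± 327 and 2210 ± 425 CPM.

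Markers of other cell types differed between the days as well. All 6 choroid plexus and ependymal markers rose in injured microglia (median 3.18) and 5 of 6 rose in uninjured microglia (median 2.46). Their summed level was 165 to 398 CPM in injured libraries of day 1 and 853 to 4143 on day 7, and 88.9 to 171 CPM and 330.2 to 1119 CPM in the uninjured libraries. Ttr, or transthyretin, the secreted carrier made by choroid plexus, was at 163, 124, 130, 185 and 69.6 CPM on day 1 and at 1710, 1310, 1590, 489 and 342 on day 7. Libraries 1 to 3 of day 7 were the highest, and the difference of differences was not called (0.46, SE 0.63, adjusted p = 0.67). Kl, or klotho, and the genes Igfbp2 and Clic6, ranked among the genes with the largest gains. Kl was at 94.8, 87.1, 48.7, 32.7 and 17.5 CPM on day 7, against 1.76 to 6.07 on day 1. Igfbp2 rose from 4.89 ± 1.29 to 63.7 ± 29 CPM and Clic6, a chloride channel protein, from 6.23 ± 1.46 to 58.1 ± 25.6 CPM. The part of these cells in other genes that rose at day 7 was not tested.

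Of 14 endothelial and mural markers 8 rose and none fell, with a summed level of 149.7 to 517 CPM on day 1 and 600.0 to 941 on day 7, and of 10 astrocyte markers 7 rose (summed 114 to 152 and 186 to 277 CPM). Kdr, the endothelial receptor of VEGF, was at 10.4, 8.12, 9.33, 11.7 and 8.56 CPM on day 1 and at 64.2, 58, 43.3, 80.3 and 65.9 on day 7. Cldn5, a tight junction protein, was at 54, 16.4, 12.7, 14.4 and 12.6 CPM on day 1 and at 84.2, 80.8, 150, 78.8 and 84.5 on day 7, a rise of 2.12 (SE 0.43) that was 2.77 without day 1 library 1. Gja1, the astrocyte gap junction protein, rose from 3.37 ± 1.95 to 33.2 ± 10.8 CPM. These genes were also higher at day 7 without injury for Kdr (1.15, SE 0.23) and Gja1 (1.75, SE 0.45), and not called for Cldn5.

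**Figure D5:**
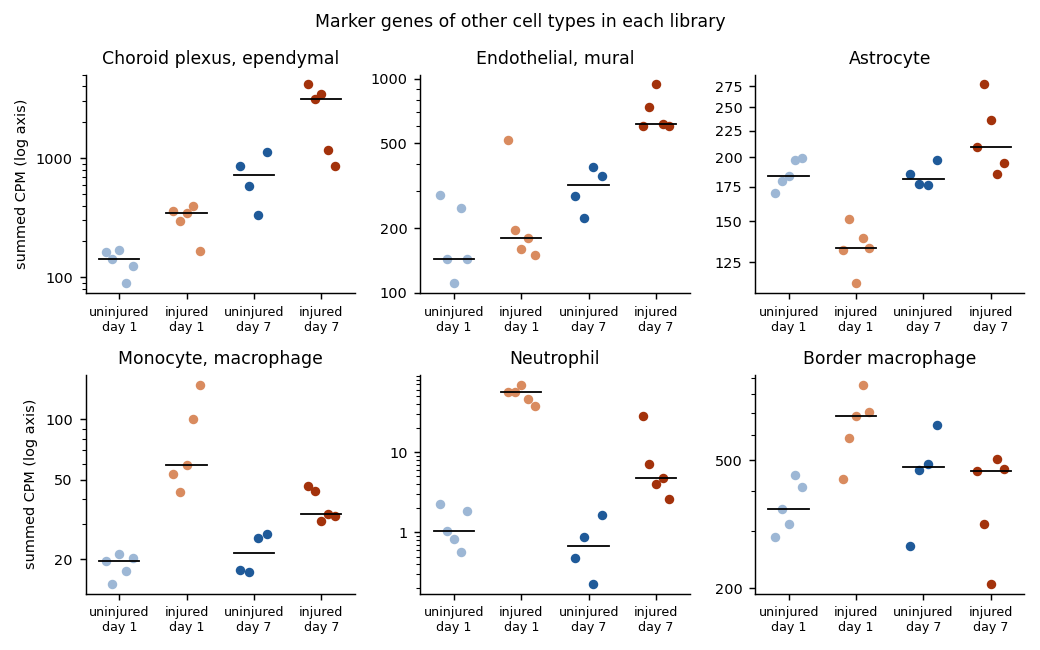
Summed CPM of the markers of 6 other cell types in each of the 19 libraries, on log axes that differ between panels; lines are group medians. Choroid plexus and endothelial sums are higher in every injured library of day 7 than in any injured library of day 1, and neutrophil sums lower.

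Some markers of blood-derived myeloid cells fell. Of 15 monocyte and macrophage markers 10 passed the filter, of which 4 fell and none rose (1 without day 1 library 1, day 7 library 4 or uninjured day 1 library 3 or 4). Their summed level over the 15 was 43.5 to 149 CPM on day 1 and 30.9 to 46.5 on day 7, and the groups overlapped. Chil3, a chitinase-like protein of monocytes and macrophages, was at 2.94, 5.32, 4.67, 20.7 and 31.7 CPM on day 1 and at 1.25, 0.154, 0, 0 and 0 on day 7 (−5.41, SE 1.05). Leaving out day 7 library 1 moved this to −7.96, and leaving out day 1 library 5 to −4.80. Ccr2, a chemokine receptor through which inflammatory monocytes home, stood at 8.97 ± 3.11 and 10.9 ± 2.15 CPM and was not called (0.29, SE 0.23, adjusted p = 0.32), and Ly6c2, their surface marker, was at 0 to 1.17 CPM, under the filter. Of 12 neutrophil markers 5 passed, and 2 fell, or 4 without day 7 library 1. Their summed level was 37.2 to 69.1 CPM on day 1 and 2.58 to 28.5 on day 7, with day 7 library 1 the highest of that day. Most of the day 1 level was Lcn2, an iron-chelating protein that other cells also make, at 43.4 ± 15.7 and 2.75 ± 1.53 CPM. The neutrophil marker genes Ly6g, Camp and Mpo had no count in any injured library of day 1. The part of these cells in the genes that fell, Adam8, Msr1 and Arg1 among them, was not tested.

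Some markers of B cells and border macrophages also changed. The T cell markers Cd3e and Cd8a had no count in any injured library, and the 12 T and NK cell markers summed to at most 3.44 CPM. Ighm, the heavy chain of immunoglobulin M, rose from 231 ± 25.2 to 504 ± 58.1 CPM with 617 ± 112 and 571 ± 57.3 CPM in uninjured microglia, and 3 of the 4 B cell markers that passed the filter rose. The summed level of 8 B cell markers, most of it Ighm, was 220 to 280 CPM on day 1 and 481 to 636 on day 7, against 529 to 835 and 538 to 688 CPM in uninjured microglia. Of 12 border macrophage markers 3 rose and 5 fell, where 22.7% of all genes tested rose and 21.7% fell. The summed level of these 12 markers was 438 to 858 CPM on day 1 and 206 to 503 on day 7, with overlap. Ms4a7 was at 3.74 to 7.35 CPM on day 1 and at 57.4, 28.3, 25.8, 20.7 and 27.5 on day 7 (2.48, SE 0.31). Lyve1, the hyaluronan receptor of perivascular macrophages, was at 3.5 to 7.02 CPM on day 1 and at 2.42, 0.386, 1.23, 0.491 and 0.574 on day 7, a fall of 2.45 (SE 0.55) that was 3.11 without day 7 library 1.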

How the data were processed

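Per the labels' protocols, sorted cells were lysed for RNA with a PicoPure kit, the cDNA went through 11 PCR cycles, and Nextera XT was used for the libraries. STAR and mm10 (GRCm38) are named in the submitters' processing notes, without a version, and HTSeq in the file headers; no source used here says whether strand was used. The authors deposited raw counts per Ensembl gene, 1 file per library. Each file also has 5 lines without a gene, which entered neither totals nor tests. Reads in no feature made up 4.41% to 6.84% of those counted, and ambiguous reads 3.19% to 3.33% in injured libraries of day 1 and 3.67% to 3.76% in those of day 7. From the percent values of the run summary, also deposited by the authors, 87.3% to 90.1% of reads aligned uniquely and 64.2% to 73.3% were duplicates; 1 line matched no library, and 31 columns were not used. No molecular identifiers are named, so PCR copies count as reads.

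Symbols and positions came from GENCODE M21 (GRCm38), which named 49326 of 49671 identifiers. The 19 libraries in 4 groups were tested in 1 fit with edgeR 4.0.16 in R 4.3.3: filterByExpr with a minimum count of 10 and total of 15, TMM scaling, the quasi-likelihood F test, and Benjamini-Hochberg adjustment over all genes tested. All adjusted p-values are from this test. SE is the log2 fold change over the square root of F. CPM uses TMM-scaled totals. The fit was first tested on simulated counts. No 2 libraries of a group were copies (lowest chi-square per degree of freedom 7.56).

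The members and the 40 gene lists, described by counts and medians, were chosen with earlier results of these data known. In the interferon list, 1 gene is not reported here and is left out of the counts. Named genes were, among called genes: up to 12 per direction with the largest change (mean log2 CPM of at least 3, no overlap between days), up to 4 per list by p and 2 by fold with 1 exception, up to 8 per direction of the difference of differences, and a fixed set of markers. Motifs were searched in the 300-base windows of the RefSeq promoter table. The alternatives were DESeq2 1.42.0 (size factors and Wald test), limma 3.58.1 voom, library totals, no filter, the compared groups alone, a replicate block and leaving out libraries.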

Additional observations from a re-analysis of the deposited data

Results flagged for a closer look

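In each group of 5 injured libraries, a gene's highest or lowest library was marked where its gap to the next was large for the range of the group (Dixon's test, which chance passes in about 1 of 20 groups). It marked 19 of 210 gene and group sets, 11 at day 7 and 8 at day 1, and 7 of the 11 at day 7 belonged to library 1. At day 7, library 1 was the highest for Marco (37.1 CPM), Msr1 (76.4), Ms4a7 (57.4), C3 (39.8), Rrm2 (14.3) and Chil3 (1.25), and the lowest for Cxcl2 (15.5). Library 3 of day 7 was the highest for Cldn5 (150.0 CPM) and Psmb9 (95.1), and library 4 for Gpnmb (256) and Slc7a11 (4.49). At day 1, library 5 was the highest for Spp1 (999 CPM), Clec7a (47.7), Mmp12 (81.4) and Ctsc (3390). Library 4 of day 1 was the lowest for Cst7 (15.5 CPM) and Plaur (202). Library 1 of day 1 was the highest for Cldn5 (54.0 CPM) and the lowest for Cdk1 (1.67).

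The difference between the days differed between injured and uninjured microglia for 2736 genes, by the test of the difference itself.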

How the results depend on the processing

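The number of genes called in injured microglia, 6226, was 5510 to 6446 under the other tests, scalings and filters, 5621 without libraries 1 and 3 of day 7, and 5675 to 6397 on leaving out 1 library. The difference of differences, 2736, was 2358 to 3117 under these and 2359 to 2767 on leaving out 1 library. The uninjured count, 483, was 740 with the DESeq2 Wald test, 872 with limma voom and 196 to 477 on leaving out 1 library. It was 321, 282 and 293 without uninjured day 1 library 2, 4 or 5, and 257 and 196 without uninjured day 7 library 2 or 4. With library totals alone, 37.3% of the difference of differences was more positive, against 46.5%. A replicate block gave 6235, 380 and 2707 calls; library numbers share only a number (correlations of same-numbered libraries −0.05 to 0.12 in injured and −0.05 to 0.16 in uninjured microglia), so it was not used. Of 104 genes tested and named, 101 kept direction and call under every alternative. Tmem119, not called, went from 0.01 to −0.01 without libraries 1 and 3 of day 7, −0.02 with voom and −0.01 with no filter, and its lowest value on leaving out 1 library was −0.09, its highest 0.07. Nr4a1 and Fos changed as given above. Without these 2 libraries Marco was −9.76, Chil3 −7.70, Lyve1 −3.52, Arg1 −5.74, Ttr 2.41 and Rrm2 1.80. With voom Marco was −8.46 and Chil3 −6.24, and with the block Marco was −6.31. Class II genes called higher were 3 of 9 without libraries 1 and 3 of day 7, with voom or with no filter. Injured libraries of day 7 were shallower: 4 of 5, from 8908746 counts, lay below every injured library of day 1, the lowest of which held 12945907. Alternatives were fixed before these fits, except the pair of libraries left out, chosen after seeing the data.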

Other observations

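Several gene groups outside the results above held few or mixed calls in injured microglia. Among all genes tested 22.7% rose and 21.7% fell. Of 13 tested p53 target and apoptosis genes 3 rose and 7 fell, and 4 fell in uninjured microglia. Of 22 cholesterol synthesis genes 1 rose and 5 fell, and of 10 TGF-β signalling genes 2 rose and 2 fell. None of the 10 tested protein genes of the mitochondrial genome was called in injured microglia (1 rose without day 7 library 5), and their median was 0.19 after injury and −0.47 without. Of 10 neuron markers 1 rose, of 9 tested oligodendrocyte lineage markers 4 rose and 1 fell, of 6 tested dendritic cell markers 2 rose, and of 5 erythroid markers none was called. Leaving out 1 library moved the neuron count between 0 and 2, the erythroid count between 0 and 2, the cholesterol genes that rose between 0 and 1, and the TGF-β genes that rose between 1 and 2.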
